A study of Mus musculus with 8 samples.

Results

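Angiotensinogen, its converting enzyme, the angiotensin receptors, the prorenin receptor and the mineralocorticoid receptor were followed as a set of 8 genes in mouse brown adipose tissue (BAT). The genes were Agt, Ace, Agtr1a, Agtr1b, Agtr2, Mas1, Atp6ap2 and Nr3c2, named for their roles, and every non-control probe whose RefSeq accession belongs to such a gene was taken. They are 8 of the 21154 genes that the array covers with a symbol. Mas1 has 2 probes and each other gene has 1.

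Male C57BL/6NCrSlc mice underwent thoracic aortic constriction (TAC), a banding of the aorta that loads the heart with pressure, or a Sham operation at 11 weeks of age. BAT was taken at 13 weeks of age, although a label of the same samples gives 4 weeks after surgery in place of 2 weeks. Each group had 4 mice, with 1 Agilent array per mouse. Scanner files were used for 7 arrays, and Sham replicate 1 was known only from the authors' value table, so its values come without a background flag. All 7 arrays lay on 1 slide with the groups in separate rows, so slide position and operation cannot be told apart.

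Renin cuts angiotensinogen to angiotensin I, and ACE trims it to angiotensin II, which acts mainly through the AT1 receptor. Rodents carry a pair of AT1 genes, Agtr1a and Agtr1b. The AT2 receptor and the Mas receptor for angiotensin-(1-7) are known as opposing arms. The mineralocorticoid receptor binds aldosterone and also glucocorticoids, and fat tissue is known as a source of angiotensinogen.

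The sequences before the gene starts show how unlike the promoters of these genes are, and 4 are printed for the precursor, an undetected receptor, the prorenin receptor and the steroid receptor. RefSeq promoters (GRCm38.p6) were found for 7 of the 8 genes, all but Agtr1a. Each sequence holds the 250 bases before the start, on the strand of the gene, with CG pairs and the letters TATAAA (either strand) in capitals. The places are chr8:124569707-124569956 (minus strand) for Agt, chrX:21484374-21484623 (plus strand) for Agtr2, chrX:12587509-12587758 (plus strand) for Atp6ap2 and chr8:76902080-76902329 (plus strand) for Nr3c2.
Agt: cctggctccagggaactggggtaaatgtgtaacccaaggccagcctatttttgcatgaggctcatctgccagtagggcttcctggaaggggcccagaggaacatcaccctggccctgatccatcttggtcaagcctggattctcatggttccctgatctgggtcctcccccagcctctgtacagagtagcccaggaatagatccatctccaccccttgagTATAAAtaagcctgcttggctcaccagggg
Agtr2: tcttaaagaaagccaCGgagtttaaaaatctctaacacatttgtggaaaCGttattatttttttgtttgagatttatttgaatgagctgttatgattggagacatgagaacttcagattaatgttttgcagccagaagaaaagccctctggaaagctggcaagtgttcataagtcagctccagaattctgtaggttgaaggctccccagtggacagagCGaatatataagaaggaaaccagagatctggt
Atp6ap2: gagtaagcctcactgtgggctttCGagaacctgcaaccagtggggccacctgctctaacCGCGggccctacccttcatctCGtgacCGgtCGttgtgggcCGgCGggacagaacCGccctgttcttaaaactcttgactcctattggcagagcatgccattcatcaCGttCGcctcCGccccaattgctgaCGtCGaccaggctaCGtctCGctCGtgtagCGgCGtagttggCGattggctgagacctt
Nr3c2: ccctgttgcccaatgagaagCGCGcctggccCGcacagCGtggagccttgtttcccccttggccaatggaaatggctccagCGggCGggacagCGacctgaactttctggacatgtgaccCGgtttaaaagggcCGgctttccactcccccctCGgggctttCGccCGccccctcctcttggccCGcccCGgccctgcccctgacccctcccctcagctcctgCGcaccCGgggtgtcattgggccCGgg

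The Agt window held 0 CG pairs and a TATAAA close to the start. Atp6ap2 held 20 CG pairs and Nr3c2 held 17, and neither window held TATAAA. Agtr2 held 3 CG pairs. Among all 32851 promoters of the table the median was 6 CG pairs, and 12.37% held TATAAA on either strand. Genes above background on all 7 arrays had a median of 15 CG pairs, against 3 for genes above background on no array. Among the members, TATAAA was found before Agt, Agtr1b and the first of 2 Ace starts. A match in these letters is a description of the window and not a site.

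Of the 8 genes, 5 were well above background on all 7 arrays: Agt, Ace, Agtr1a, Atp6ap2 and Nr3c2. Agtr1b and Agtr2 were above background on 0 of 7 arrays, and Mas1 on 2. Over all genes with a symbol, 64.7% were above background on all 7 arrays and 20.7% on none. The 5 detected genes entered the comparison of TAC with Sham, which covered 33396 probes and used limma, whose variance estimate for a probe borrows from all the others. None of the 5 passed an adjusted p of 0.05, and 0 of all probes did (0%). At an unadjusted p under 0.05 the comparison held 1417 probes that were higher (4.24%) and 2877 that were lower after TAC (8.61%), and a test of each probe by its own variance alone gave 1550 and 2652, with 0 after adjustment. None of the 5 genes was among either. In none of the 5 were the TAC and Sham arrays separated without overlap, on the 7 arrays or on the 8 of the table. Without regard to the test, 16.1% of probes were separated on the 7 arrays and 9.82% on the 8.

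Levels below are those of the authors' value table, in which the 75th percentile of each array is 1, since the table has all 8 arrays. Fold changes come from the 7 arrays with scanner files unless the table is named.

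**Figure D1:**
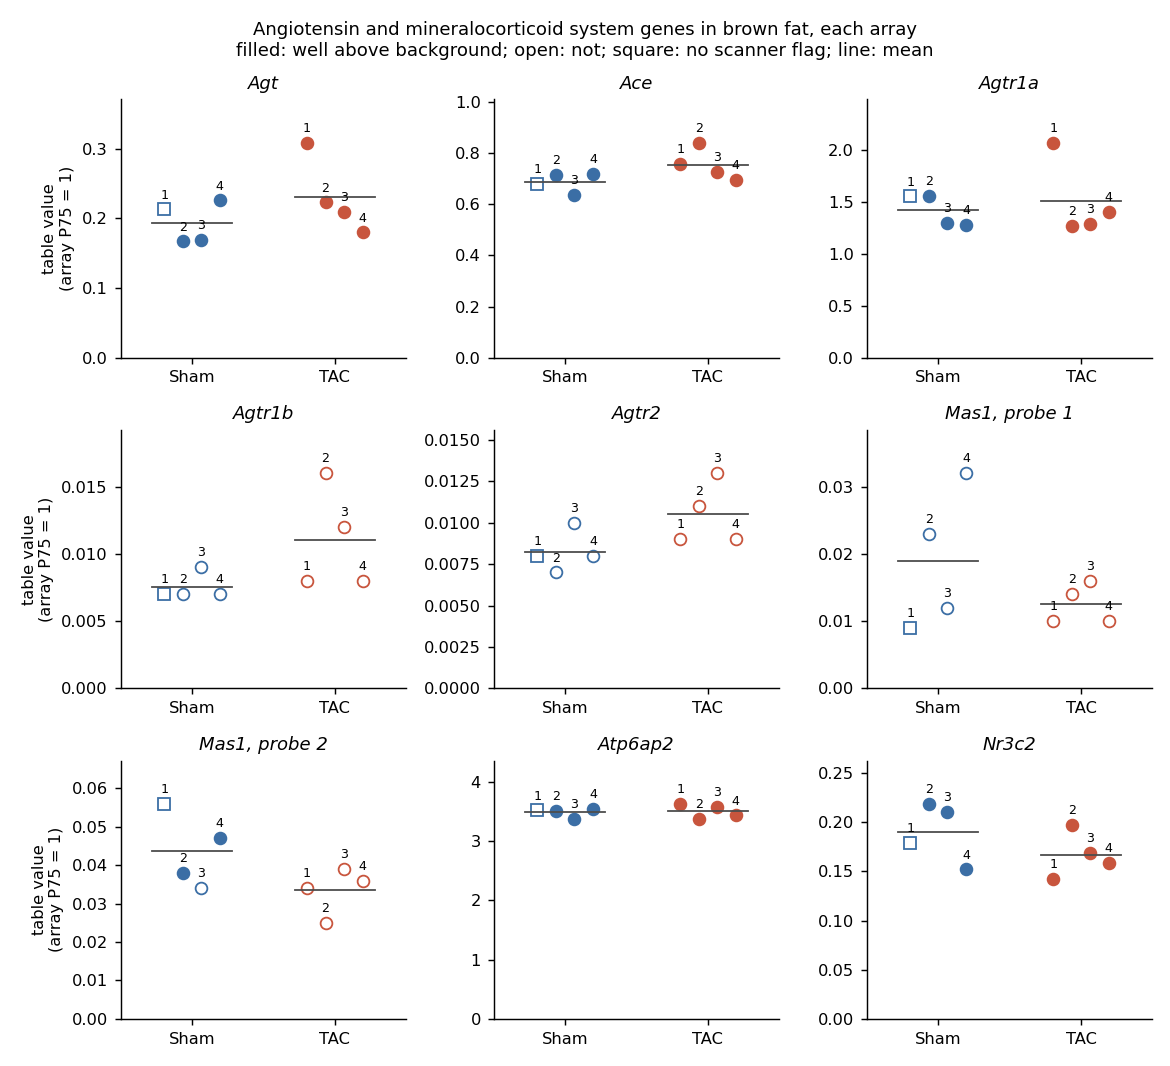
Value of each probe of the 8 genes on each array, in units of the 75th percentile of the array (linear axis from 0), with Sham in blue and TAC in red and the replicate number above each point. Filled circles were well above background, open circles were not, squares mark Sham replicate 1, which has no flag, and lines are means. The groups overlap for every detected gene, and TAC replicate 1 is the highest array for Agt, Agtr1a and Atp6ap2.

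Agt, the precursor of all angiotensins, was at 0.213, 0.167, 0.169 and 0.226 in Sham replicates 1 to 4. After TAC it was at 0.309, 0.223, 0.210 and 0.180. TAC replicate 1 stood highest, and the other TAC arrays lay within the Sham range. Means were 0.194 ± 0.0302 (SD, n = 4) for Sham and 0.231 ± 0.0553 (SD, n = 4) for TAC. The log2 fold change was 0.30 with a standard error of 0.20, a 95% interval from -0.17 to 0.77 and an adjusted p of 0.548. In folds the interval runs from 0.886 to 1.71. The exact two-sided permutation test over the 35 splits of 7 arrays gave p = 0.20, where the smallest possible p is 0.0286. With single arrays left out the log2 fold change ranged from 0.15 (without TAC replicate 1) to 0.45 (without Sham replicate 4).

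Ace, the converting enzyme on endothelial surfaces, was at 0.677, 0.714, 0.635 and 0.717 in Sham. After TAC it was at 0.755, 0.840, 0.726 and 0.694, so 3 TAC arrays lay above every Sham array and replicate 4 lay among them. The log2 fold change was 0.14 with a standard error of 0.10, a 95% interval from -0.09 to 0.37 and an adjusted p of 0.562. The exact permutation p was 0.171 on the 7 arrays and 0.114 on the 8 of the table. With single arrays left out the log2 fold change ranged from 0.09, without Sham replicate 3 and likewise without TAC replicate 2, to 0.18.

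Agtr1a, the main AT1 receptor of rodents, was at 1.553, 1.554, 1.301 and 1.281 in Sham. After TAC it was at 2.071, 1.268, 1.289 and 1.402. TAC replicate 1 was the highest array, and the other 3 TAC arrays lay near the Sham values, with replicate 2 the lowest of all 8. The log2 fold change was 0.12 with a standard error of 0.19, a 95% interval from -0.32 to 0.55 and an adjusted p of 0.809. Its direction rests on TAC replicate 1: without that array it was -0.04, with a 95% interval from -0.30 to 0.21. Without Sham replicate 2 it was 0.20.

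The second AT1 gene, Agtr1b, was at 0.007 to 0.009 in Sham and 0.008 to 0.016 after TAC, and Agtr2 at 0.007 to 0.010 and 0.009 to 0.013. Neither was well above background on any of the 7 arrays, so no fold is given. The first Mas1 probe was likewise at 0.009 to 0.032 in Sham and 0.010 to 0.016 after TAC, above background on 0 arrays. The second Mas1 probe was at 0.056, 0.038, 0.034 and 0.047 in Sham and at 0.034, 0.025, 0.039 and 0.036 after TAC. It was above background on Sham replicates 2 and 4 and on 0 of 4 TAC arrays, too few to be compared. The flag depends on the array as well as on the level. Sham replicate 2 at 0.038 had it and TAC replicate 3 at 0.039 did not. An absence of these receptors from the tissue does not follow, since a probe at background sets only a limit.

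Atp6ap2, the prorenin receptor and an accessory subunit of the vacuolar proton pump, had the smallest standard error of the 5 genes. It was at 3.519, 3.511, 3.371 and 3.550 in Sham and at 3.634, 3.373, 3.579 and 3.436 after TAC. The arrays of both groups were interleaved. The log2 fold change was 0.02 with a standard error of 0.07, a 95% interval from -0.15 to 0.20 and an adjusted p of 0.912, so the interval in folds spans 0.90 to 1.15. With single arrays left out it ranged from 0.004 to 0.04. Of the 15018 genes tested, 0.85% had a smaller standard error.

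Nr3c2, the mineralocorticoid receptor, was at 0.179, 0.219, 0.211 and 0.152 in Sham. After TAC it was at 0.142, 0.197, 0.169 and 0.159. TAC replicate 1 was the lowest array, and Sham replicates 1 and 4 lay among the TAC arrays. The log2 fold change was -0.20 with a standard error of 0.17, a 95% interval from -0.60 to 0.20 and an adjusted p of 0.635. The exact permutation p was 0.314 on the 7 arrays. With single arrays left out the log2 fold change ranged from -0.36 (without Sham replicate 4) to -0.11 (without Sham replicate 2), and it was -0.12 without TAC replicate 1.

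On the table of 8 arrays, with Sham replicate 1 included, the log2 fold changes were 0.23 for Agt, 0.13 for Ace, 0.06 for Agtr1a, 0.01 for Atp6ap2 and -0.19 for Nr3c2. Their signs are those of the 7 arrays, and on the 8 arrays 14.2% of all probes had an unadjusted p under 0.05, with none of these 5 among them.

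**Figure D2:**
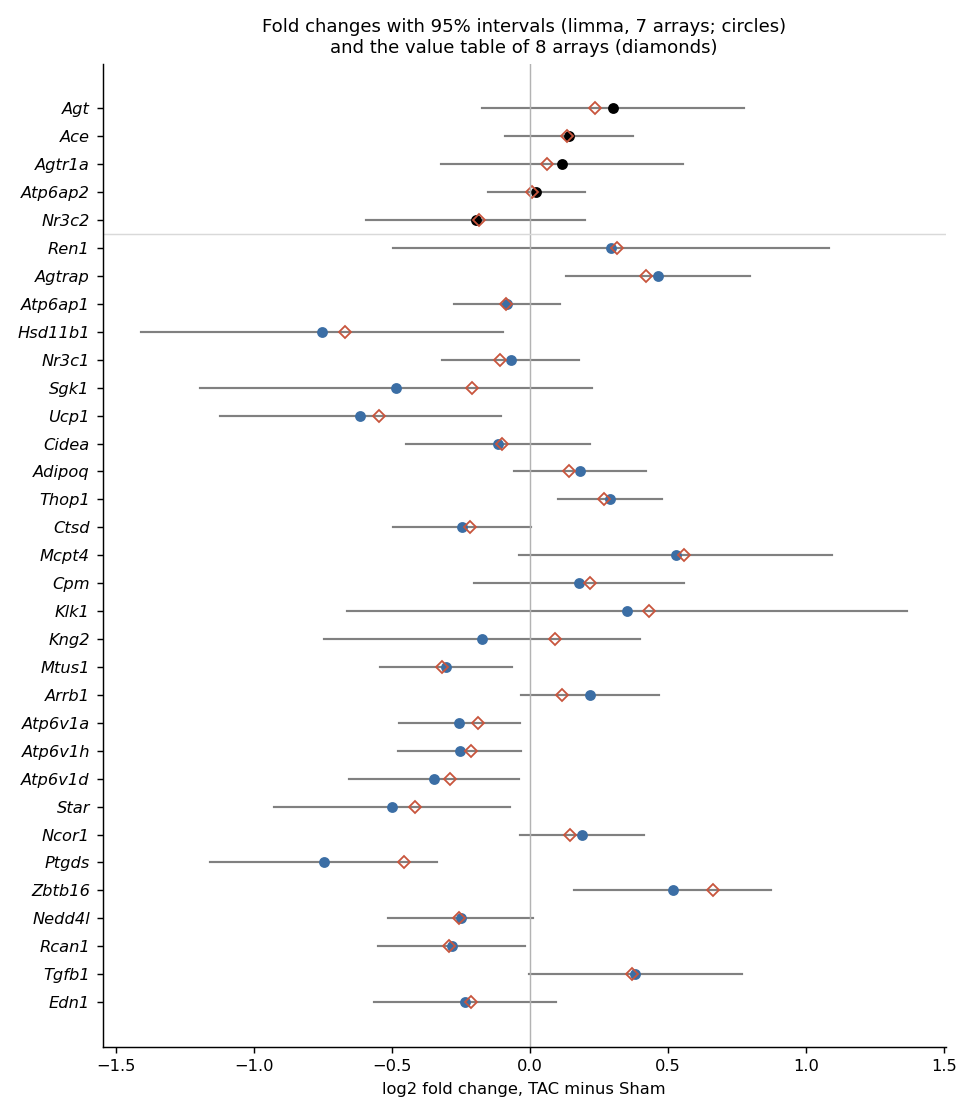
Log2 fold change, TAC minus Sham, of the 5 detected system genes (black, top) and of the other named genes (blue) on 7 arrays with 95% limma intervals. Diamonds give the table of 8 arrays. The intervals of Agt, Ace, Agtr1a, Atp6ap2 and Nr3c2 all include 0.

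The genes with the most similar course over the 7 arrays were found by the root mean square difference of centred log2 values, among 15012 genes measured on every array. For Agt they were Ifi211 (0.09), C1ra (0.09) and Itgb3 (0.10), against a spread of 0.29 for Agt itself. For Ace they were Vcan, Cbr1 and Aebp1 (each 0.03), against 0.11. For Agtr1a they were Mical1 (0.05), Zfp287 (0.05) and 1700029M20Rik (0.06), against 0.23. For Nr3c2 they were Catsperz (0.04), Morn5 (0.05) and Gm10516 (0.07), against 0.22. For Atp6ap2 the nearest, Ensa, Neo1 and Tcf7l2, differed by 0.02 to 0.03 against a spread of only 0.04, so little of a course is shared. Of the 15012 genes, 3178 differed from Agt by less than its own spread, 730 from Ace and 2868 from Agtr1a. For Nr3c2 there were 4850 and for Atp6ap2 16. The nearest 3 of so many genes are close by the way they were picked. Such likeness over 7 arrays carries the array-to-array spread as well as the operation.

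The genes around the system were counted in 7 lists, each gene by its brightest probe. For comparison, the median log2 fold change of all 15018 genes was -0.03, 55.9% of them lay under 0, and 12.0% of them had an unadjusted p under 0.05. No gene of any list passed an adjusted p of 0.05.

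**Figure D3:**
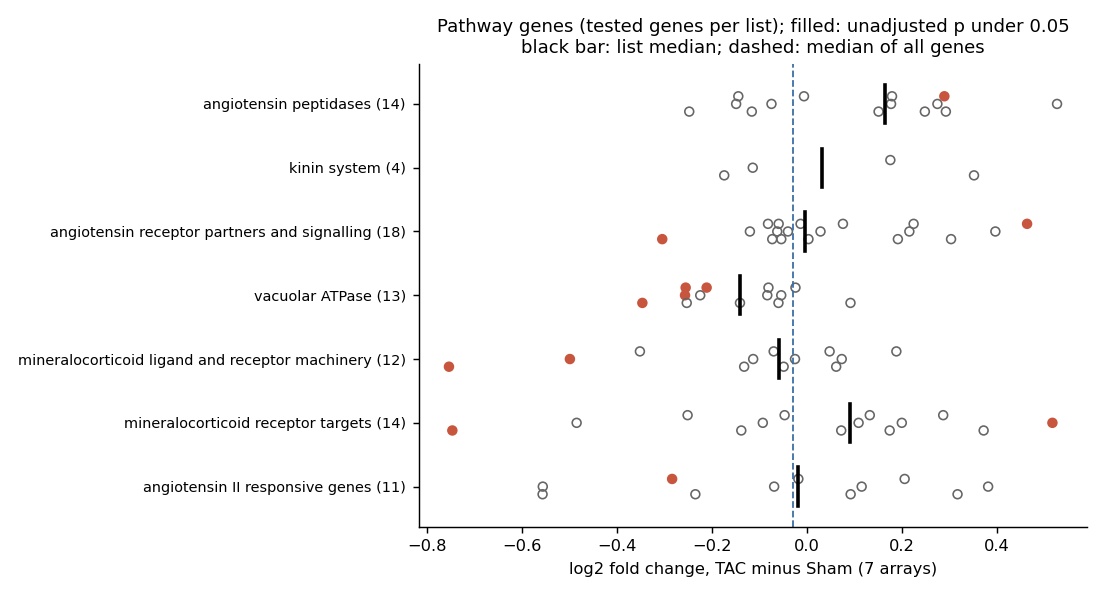
Log2 fold change, TAC minus Sham, of each tested gene in 7 pathway lists on 7 arrays, with list medians as black bars and the median of all genes dashed. Filled points have an unadjusted p under 0.05. The vacuolar ATPase list has 12 of 13 genes under 0, and the other lists straddle 0.

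Among 15 angiotensin peptidases, 14 were tested, 8 lay above 0 and 6 under 0, and the median was 0.16, or 0.05 without TAC replicate 1 and 0.03 without TAC replicate 3. Thop1, an oligopeptidase that makes angiotensin-(1-7), had the smallest p at a log2 fold change of 0.29 (unadjusted p = 0.00858). Its Sham arrays were at 1.085 to 1.118 and its TAC arrays at 1.227 to 1.396, with no overlap. Renin itself, Ren1, was above background on all 7 arrays at 0.131 to 0.171 in Sham and 0.129 to 0.344 after TAC, and TAC replicate 3 alone carried its log2 fold change of 0.29, since without it the value was -0.01. Without TAC replicate 2 it was 0.46. Ctsd, a lysosomal protease that can cut angiotensinogen, was at -0.25 by its brightest probe and at -0.41 by its other one. Mcpt4, a mast cell chymase, was at 0.53 and ranged from 0.27 to 0.72 with single arrays left out.

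Of the 7 kinin genes 4 were tested, with 0 at an unadjusted p under 0.05. Their median was 0.03, but -0.12 without TAC replicate 1 and 0.17 on the table of 8 arrays, so it has no steady direction. The smallest p belonged to Cpm (0.18), Klk1 (0.35) and Kng2 (-0.17). With single arrays left out Cpm ranged from 0.08 (without Sham replicate 2) to 0.28 (without TAC replicate 2), and it was 0.10 without TAC replicate 1. Klk1 ranged from -0.02 (without TAC replicate 1) to 0.55 and Kng2 from -0.35 to -0.01, and Kng2 was at 0.09 on the table of 8 arrays. The bradykinin receptor Bdkrb2 was above background on no array.

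Among 19 receptor partners and signalling genes 18 were tested, with 9 above and 9 under 0 and a median of -0.01, which was 0.05 without Sham replicate 4. Agtrap, which draws the AT1 receptor into the cell, was at 0.970, 0.995, 0.814 and 0.864 in Sham and at 1.490, 1.056, 1.264 and 1.094 after TAC. All 4 TAC arrays lay above all 4 Sham arrays, and the log2 fold change was 0.46 (adjusted p = 0.293). Mtus1, a partner of the AT2 receptor, was at 5.366 to 6.459 in Sham and 4.410 to 5.043 after TAC, again with no overlap, at a log2 fold change of -0.30 (adjusted p = 0.317). Both directions held without TAC replicate 1, at 0.37 and -0.30. Arrb1 was at 0.22 with a standard error of 0.11, at 0.14 without Sham replicate 4 and at 0.12 on the table of 8 arrays, where Sham replicate 1 at 11.79 is the highest array.

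All 13 vacuolar ATPase genes, partners of Atp6ap2 in the proton pump, were tested. After TAC 12 lay under 0 and 1 above, with a median of -0.14, and 4 had an unadjusted p under 0.05. Quantile normalization left 9 under 0 and 4 above, with a median of -0.07, and without TAC replicate 1 the median was also -0.07, with 11 under 0. With array weights it was -0.08. Atp6v1a was at -0.26, Atp6v1h at -0.26 and Atp6v1d at -0.35, each with separated groups on the 7 arrays. With Sham replicate 1 included, at 11.676 for Atp6v1a, the groups overlapped in each by these probes. The other Atp6v1a probe, at -0.35, had separated groups on all 8 arrays, and so had Atp6v1g1, at -0.21. The second accessory subunit, Atp6ap1, was at -0.08 with a standard error of 0.08, and at -0.13 without Sham replicate 4. Its other probe was at -0.15, or -0.09 without TAC replicate 2, with separated groups on the 7 arrays and an overlap on the 8.

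Of 17 genes for mineralocorticoid ligands and the receptor machinery, 12 were tested, and the median was -0.06. With single arrays left out it ranged from -0.09 (without TAC replicate 2) to -0.03 (without TAC replicate 1). Over all alternatives run it came as near to 0 as -0.00755. Hsd11b1, which regenerates active glucocorticoid, was at 70.2, 80.1, 98.4 and 96.6 in Sham and at 31.6, 66.3, 59.6 and 66.7 after TAC. All TAC arrays lay below all Sham arrays, and the log2 fold change was -0.75 (adjusted p = 0.348). Without TAC replicate 1, the lowest, it was -0.50. Star, which carries cholesterol into mitochondria for steroid synthesis, was at -0.50. Its second probe was above background on 3 of 3 Sham arrays, at 0.054 to 0.063, and on 0 of 4 TAC arrays, at 0.010 to 0.039, and passed the filter through Sham alone, so no fold is given for it. Hsd11b2, which inactivates glucocorticoid, was above background on 1 of 7 arrays, TAC replicate 3 at 0.320. Cyp11a1, Hsd3b1 and Cyp11b1, enzymes of adrenal steroid synthesis, were above background on no array, and Cyp11b2 was above it on 1. Cyp21a1, another such enzyme, was above background on all 7 arrays by its brightest probe, at 0.255 to 0.290 in Sham and 0.220 to 0.271 after TAC, and on none by its other probe. The glucocorticoid receptor Nr3c1 was at -0.07 with a standard error of 0.11, and ranged from -0.16 to -0.02 with single arrays left out. The corepressor Ncor1 was at 0.19 with a standard error of 0.10 by its brightest probe, and ranged from 0.11 (without Sham replicate 3) to 0.25. Its other 2 probes were at 0.11 and 0.01.

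Of 16 mineralocorticoid receptor targets 14 were tested, with 8 above and 6 under 0 and a median of 0.09, or 0.04 without Sham replicate 3. They went in different directions. Ptgds, prostaglandin D synthase, was at -0.75 (adjusted p = 0.206), but Sham replicate 1 at 3.426 lay below every TAC array, and the table of 8 arrays gave -0.46. Zbtb16, a transcription factor induced by steroids, was at 18.8 to 35.4 in Sham and 34.6 to 44.7 after TAC, at a log2 fold change of 0.52 (adjusted p = 0.279). Sgk1, a kinase that raises sodium uptake, ranged from 7.96 to 22.6 in Sham and from 9.97 to 19.2 after TAC, at -0.49 with a standard error of 0.30. It ranged from -0.76 to -0.30 with single arrays left out and was at -0.21 on the table of 8 arrays. Nedd4l, a ubiquitin ligase that Sgk1 restrains, was at -0.25 by its brightest probe and at -0.40 by its other one. For the other probe the lowest Sham array of the table was at 0.186 and the highest TAC array at 0.185. On the 7 arrays with scanner files its groups overlapped, and it was at -0.24 without Sham replicate 3. The sodium channel subunits Scnn1b and Scnn1g were above background on no array. Several of these genes also answer to glucocorticoids, so the list does not single out the mineralocorticoid receptor.

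Of 13 genes known to respond to angiotensin II 11 were tested, with 5 above and 6 under 0 and a median of -0.02. Rcan1, a calcineurin inhibitor, was at -0.28 with separated groups on all 8 arrays, Tgfb1 was at 0.38, and Edn1 at -0.24. Without TAC replicate 1 Tgfb1 was at 0.25 and Edn1 at -0.11, and the median of the list was -0.12, while without TAC replicate 4 it was 0.26. Il6 was above background on no array.

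The tissue label was checked on brown fat markers. Ucp1, the uncoupling protein of brown fat, was at 688 to 945 in Sham and 377 to 674 after TAC, at a log2 fold change of -0.61 (adjusted p = 0.333). Cidea was at -0.12 with a standard error of 0.14, and at -0.02 without TAC replicate 1. Adipoq was at 0.18, and ranged from 0.14 to 0.25 with single arrays left out. All 8 brown adipocyte markers were well above background, with 1 at an unadjusted p under 0.05. All 8 had a log2 fold change under 0, with a median of -0.19 (-0.31 without Sham replicate 2), against 6 of 8 with quantile normalization, with array weights, without TAC replicate 1 or without Sham replicate 3. There were 7 of 8 on the table of 8 arrays, without Sham replicate 4 or without TAC replicate 4. One of the 8, Ppargc1a, was at -0.01 with a standard error of 0.42, and its other probe was at 0.12. Without Sham replicate 2 the 2 probes were at -0.39 and -0.18, and without TAC replicate 1 at 0.25 and 0.33. Elovl3 was at -2.49 with a standard error of 1.09, and at -1.47 without TAC replicate 1. Dio2 was at -1.10 with a standard error of 0.76, and ranged from -1.65 (without TAC replicate 3) to -0.60 (without TAC replicate 1). TAC replicate 3, at 15.7, was the highest of the 8 arrays for Dio2.

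Markers of other cells differed between single arrays. On TAC replicate 1 the 6 macrophage markers averaged 0.93 on the log2 scale above the Sham mean of the table, against -0.21, -0.48 and -0.37 on the other TAC arrays. Their summed level was 36.3 on that array and between 16.7 and 24.7 on the other 7. The brown adipocyte markers averaged -1.36 on that array, against -0.18, 0.05 and -0.60 on TAC replicates 2 to 4, and their summed level was 3144 against 3925 to 4984 elsewhere. Much of that mean came from Elovl3, at 0.083 against 2.388 to 4.749 in Sham, and Dio2, at 1.780 against 5.589 to 15.3, while Cidea was at 1234 against 1514 to 1860. The same array stood apart on the first principal component, at 89.7 against -8.48 to 3.66 for the other TAC arrays and -32.6 to -20.4 for the 3 Sham arrays. On the table of 8 arrays Sham replicate 1, at -3.23, lay among the other TAC arrays, at -7.04 to 4.40. TAC replicate 1 was the highest array for Agt, Agtr1a and Atp6ap2 and the lowest for Nr3c2. Fewer cells of a type and less RNA per cell cannot be told apart in bulk tissue, and the part of these cells in the values above was not tested.

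The 8 skeletal muscle markers varied more, with summed levels of 149, 44.6, 155 and 79.1 in Sham and 256, 196, 56.2 and 250 after TAC. Their median log2 fold change was 1.02, and ranged from 0.61 (without Sham replicate 2) to 1.55 (without TAC replicate 3). The median was 0.11 for 7 endothelial markers tested, from 0.03 (without Sham replicate 3) to 0.15, and -0.11 for 4 Schwann cell and nerve markers, from -0.18 to -0.05 (without TAC replicate 4). The other 7 medians lay between -0.08 and 0.11, and each turned its direction when 1 array or another was left out. Those of 6 macrophage markers ranged from -0.39 (without TAC replicate 1) to 0.25, of 5 mast cell markers from -0.26 to 0.16 and of 3 lymphocyte markers from -0.01 to 0.10. The median of 7 smooth muscle and pericyte markers ranged from -0.04 to 0.28 (without TAC replicate 1), of 5 fibroblast markers from -0.06 to 0.11, of 6 general adipocyte markers from -0.02 to 0.09 (without TAC replicate 1) and of 3 erythroid markers from -0.22 to 0.17. On the table of 8 arrays the macrophage, lymphocyte, fibroblast, mast cell and erythroid medians also had the other sign. Fcer1a and Dbh were above background on no array.

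**Figure D4:**
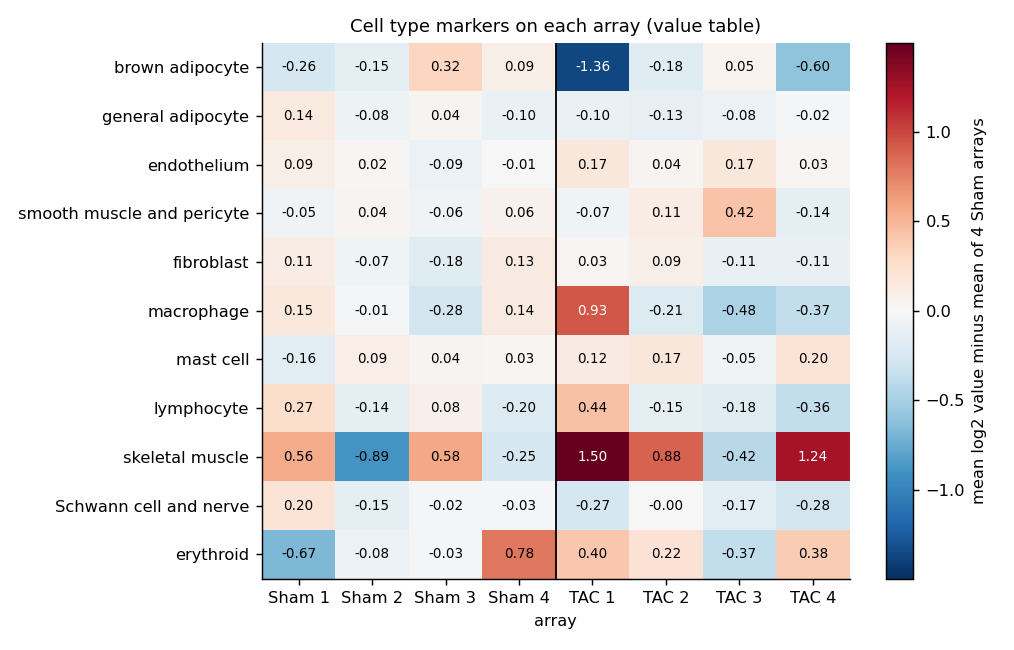
Mean log2 value of each marker list on each array of the value table, minus the mean of the 4 Sham arrays. TAC replicate 1 has the highest macrophage value (0.93) and the lowest brown adipocyte value (-1.36), and skeletal muscle markers vary within both groups.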

How the data were processed

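RNA from BAT of 4 Sham and 4 TAC mice was hybridised to 1-colour Agilent arrays. The scanner files deposited for 7 arrays hold background-subtracted intensity per spot from Agilent Feature Extraction 10.7.1.1. The deposited value table holds intensity for all 8 arrays on a linear scale, which the values show to be divided by the 75th percentile of each array.

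Spots marked as outliers (134 to 191 per array) were left out, intensities were converted to log2, the 75th percentile of the array was subtracted, and spots of a probe were averaged. The smallest signal well above background limits what can be seen, and the number of arrays limits the precision. Probes were named through RefSeq accessions, which gave a symbol to 28026 of 55681. Tested probes had a signal well above background on 3 or more of 7 arrays and a value on 2 or more arrays per group, and a spot counted toward the filter whether or not it was an outlier. TAC and Sham were compared by limma (version 3.58.1, R 4.3.3), p-values were adjusted over all tested probes by Benjamini and Hochberg, and the fit was tested on simulated data. Tables and figures were made with Python 3.11.15.

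The members and gene lists were chosen with earlier results of these data known. Named genes were all members, a set list of system genes (Ren1, Agtrap, Atp6ap1, Hsd11b1, Hsd11b2, Nr3c1, Sgk1), the 3 tested genes of each list with the smallest p, 3 tissue genes (Ucp1, Cidea, Adipoq) and the 3 genes most like each detected member. Other genes are named as detected or not, and Atp6v1g1, Cyp21a1, Elovl3, Dio2 and Ppargc1a were named after their values were seen. An item that the rule would name is not reported here and is left out of the lists. Alternatives were other background correction, scaling, filters, variance models, the t-test of the methods, the value table, the replicate number as a block and each array left out. Counting only spots that were not outliers toward the filter was added after the data were seen.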

Additional observations from a re-analysis of the deposited data

Results flagged for a closer look

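In each group of 4 arrays of the value table, the gap between the array farthest out and its nearest neighbour was divided by the range on the log2 scale. Of 66 groups, for 33 genes, 6 passed the critical value of Dixon, and chance gives about 1 in 20. None of them belongs to the 5 system genes with a tested probe, and Agtr1b, Agtr2 and Mas1 were not examined.

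TAC replicate 1 was alone on the low side for Hsd11b1 (0.85), at 31.6 against 59.6 to 66.7. It was also alone on the low side for Atp6v1d (0.877), at 27.8 against 36.0 to 37.3, and for Zbtb16 (0.852), at 34.6 against 43.1 to 44.7. Without this array the log2 fold changes of the 3 genes were -0.50, -0.24 and 0.60.

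Sham replicate 1 was alone on the low side for Ptgds (0.915), at 3.43 against 7.63 to 8.23. Sham replicate 4 was alone on the low side for Nr3c1 (0.893), at 17.0 against 20.4 to 20.9. Sham replicate 3 was alone on the high side for Cidea (0.83), at 1860 against 1514 to 1567.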

How the results depend on the processing

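No system gene passed an adjusted p of 0.05 under any alternative run, and 105 of 110 values kept the direction of the 7 arrays. In 5 of the 22 settings only the filter or the variance differs, so the value is the same. The replicate block settings repeat the values without TAC replicate 1 and of the table of 8 arrays. Sizes moved more. Agt was at 0.145 and Ace at 0.0831 with normexp, and Nr3c2 at -0.10. With array weights Agt was at 0.118, Agtr1a at 0.036 and Nr3c2 at -0.075. On the table without TAC replicate 1 Agt was at 0.0841 and Nr3c2 at -0.112. The smallest adjusted p was 0.428. Agtr1a turned to -0.103 on the table of 8 arrays with TAC replicate 1 dropped, and ranged from -0.0443 to 0.20 with single arrays left out. Atp6ap2 turned to -0.00244 with median centring and to -0.0106 on the table without TAC replicate 1. The cause was not tested.

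Probes higher at an adjusted p under 0.05 were 0 to 7 and lower ones 0 to 1 with single arrays left out, all of them without TAC replicate 4. Normexp, median centring and array weights each gave 1 lower probe. At an unadjusted p under 0.05, leaving out Sham replicate 3 gave 855 higher and 1639 lower, against 1417 and 2877.

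Among the other named genes 609 of 616 values kept their direction. With single arrays left out, Ren1 ranged from -0.0149 (without TAC replicate 3) to 0.458 and Klk1 from -0.0182 (without TAC replicate 1) to 0.55. Nr3c1 turned to 0.0117 with quantile normalization. Klk1 turned to -0.0454 with array weights. Kng2 was at 0.0897 on the table of 8 arrays.

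The replicate numbers mark separate mice, and their deviations correlated at 0.00164, -0.0253 and -0.0206 on the scanner arrays and at 0.269, 0.0202, 0.0565 and 0.0207 on the table, so they were not taken as pairs. With the replicate block on 7 arrays, where TAC replicate 1 has no partner, 0 probes passed in either direction. For a gene measured on every array, its fold change there is necessarily that without TAC replicate 1. Agtr1a was thus again at -0.0443 and Klk1 at -0.0182. With the block on 8 arrays 0 passed. The fold changes there are necessarily those of the table of 8 arrays, with Kng2 again at 0.0897. Beside those settings the block changes only the variance, so its directions are no separate result.

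List medians moved by less than the spread between arrays in 140 of 154 values. That spread is each list's own, so a list that varies widely stays within it easily. The kinin median stayed within it in 22 of 22 values, yet ran from -0.142 to 0.169. Settings that change only the variance cannot move a median, and the replicate block settings repeat others, so the count does not measure stability. The angiotensin peptidases, at 0.16, had a median of 0.0458 with normexp, 0.106 on the table of 8 arrays, -0.00447 on that table without TAC replicate 1, 0.0738 with array weights, 0.0514 with the replicate block on 7 arrays, 0.106 with it on 8 arrays, and 0.026 to 0.176 with single arrays left out. The receptor partners ranged from -0.0021 to 0.0507 and the angiotensin II responsive genes from -0.125 to 0.259 with single arrays left out. Each tested system gene has 1 probe that passes the filter, so the mean over probes is the same value. Not counting outlier spots toward the filter, chosen after the data were seen, changed no direction and no call. Dim probes limit what can be said of Agtr1b, Agtr2 and Mas1.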
